A study of Saccharomyces cerevisiae with 32 samples.

Results

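SSD1 and a set of other budding yeast genes for proteins that bind mRNA were followed through 4 comparisons of helicase mutants with their wild types. The set was given by name: SSD1, MPT5, PUF3, PUF4, WHI3, PUB1, NGR1, SCP160, BFR1 and NPL3. Of these 10 genes, 9 had a row in each of the 4 deposited tables, out of 4836 genes present in all 4, and BFR1 was not analysed here. All 9 were abundant enough to enter every comparison, since their mean normalized abundance in wild type and mutant reached at least 10 in both assays. The members were chosen by their footprint, mRNA and TE changes in these same tables, so every value of theirs is a description and none was tested.

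These proteins act on mRNA after transcription. Ssd1, the Puf proteins, Whi3, Pub1 and Ngr1 bind chosen mRNAs and change where they go, how long they last or how often they are translated. Npl3 packages mRNA in the nucleus and leaves with it for the cytoplasm. Their own mRNAs must in turn be scanned by initiating ribosomes, and the DEAD-box helicases Ded1 and eIF4A work on the mRNA at that step.

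Ribosome footprints and mRNA were measured in whole cells from 16 footprint and 16 mRNA libraries, 2 replicates for each assay and condition. Wild-type DED1 (strain NSY4) was set against the cold-sensitive mutant ded1-cs (NSY5) at 15 °C, and wild-type DED1 (NSY10) against the temperature-sensitive mutant ded1-ts (NSY11) at 37 °C. Wild-type TIF1 (NSY20) was set against tif1-ts (NSY21), a mutant of an eIF4A gene, at both 30 and 37 °C. All cells were grown in synthetic complete medium and treated for 2 min with cycloheximide (100 µg/ml), which holds ribosomes in place. The temperatures are those in the sample names, and whether the cells at 30 °C were shifted in temperature is not stated here. No source used here gives the amino acid changes of the mutants, other markers of the strains or their SSD1 allele, which varies among laboratory strains.

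The files held 1 value for each assay and condition, in which the replicates had already been combined, so the differences below were not checked against replicates and carry no p-value. Translational efficiency (TE) is the log2 footprint abundance of a gene minus its log2 mRNA abundance. A change is the log2 ratio of mutant to wild type, and "lower" or "higher" describes these libraries. A change counts as past the threshold at 2-fold, a log2 value of 1 or more in size. Footprint depth, estimated from the spacing of low values, ran from 3.89 M reads in tif1-ts at 37 °C to 12.1 M in wild-type DED1 at 15 °C, and the mRNA depth is unknown. The standard error that counting alone puts on a footprint change lay between 0.03 and 0.19 for the members. The DED1 gene itself was read in every comparison, with TE changes of 1.09 for ded1-cs, 0.19 for ded1-ts and then -0.35 and -0.40 for tif1-ts at 30 and 37 °C in the authors' deposited tables.

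In wild-type cells most of these mRNAs were translated better than the typical mRNA. TE levels are given relative to the median gene of the same condition, which allows conditions of separately normalized tables to be set side by side. Because mRNA levels were mostly deposited to 1 decimal, a TE level is known to about that precision. PUB1, SCP160, NPL3 and MPT5 formed the upper group, with wild-type TE levels from 1.00 to 2.06 above the median gene on the log2 scale. SSD1, PUF3, WHI3, NGR1 and PUF4 lay lower in every wild type, from -0.22 to 0.91. PUF4 was the lowest of the 9 in each wild type, and it lay below the median gene in both wild types at 37 °C, at -0.22 beside DED1 and -0.19 beside TIF1. With 1 value per condition, it cannot be said which neighbours in this order differ.

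The members also differed in how much mRNA and ribosome traffic they had. Per kilobase of gene, NPL3 had the most mRNA in all 4 wild types, from 312 normalized reads per kb at 37 °C with TIF1 to 882 at 15 °C. PUB1 came next and then SCP160 in each of them. MPT5 had the least, from 19.9 to 79.5 normalized mRNA reads per kb, although its reference length of 3220 nt is not a multiple of 3 and so is not a pure coding length. SSD1 lay in between, with 84.0 to 255 normalized mRNA reads per kb and 154 to 482 normalized footprint reads per kb.

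**Figure D1:**
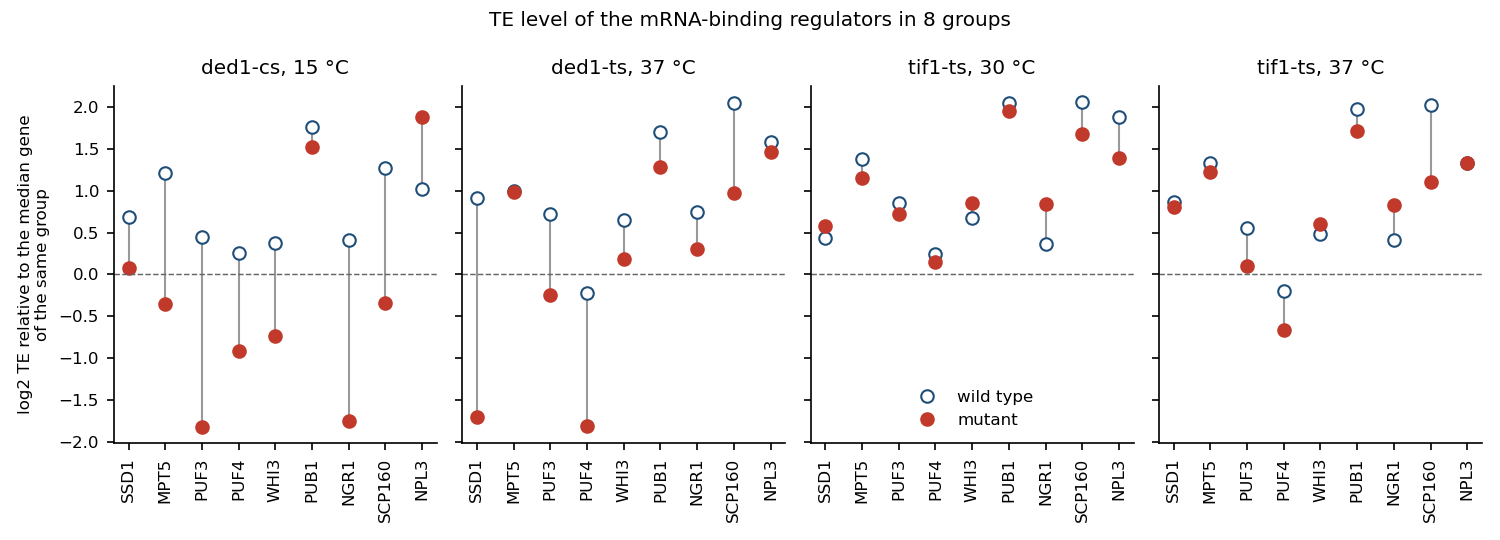
Log2 TE of each of the 9 genes (x axis) relative to the median gene of the same condition (y axis, dashed line at 0), with an open circle for the wild type and a filled one for the mutant, in 4 panels for the 4 comparisons. SSD1 goes from 0.91 to -1.71 in the ded1-ts panel, PUF3 and NGR1 go to -1.82 and -1.75 in the ded1-cs panel, and PUF4 lies below the dashed line in both wild types at 37 °C.

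Counted over the set, TE was at least 2-fold lower in ded1-cs for 6 of the 9 members, where the same held for 17.4% of all 4855 genes. None was higher by that much in ded1-cs, where 8.63% of genes were. In ded1-ts 3 of 9 passed on the low side against 4.64% of all 5238 genes, and none on the high side against 4.18%. None of the 9 passed in TE in tif1-ts, where 1.14% of genes were lower and 2.34% higher at 30 °C, and 3.19% lower and 5.27% higher at 37 °C. Since the members were picked with these changes known, nothing is read from these shares. The median TE change of the members was -1.16, -0.44, -0.18 and -0.14 in the order ded1-cs, ded1-ts and tif1-ts at 30 and 37 °C, against 0.10, 0.08, 0.04 and 0.08 for all genes.

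**Figure D2:**
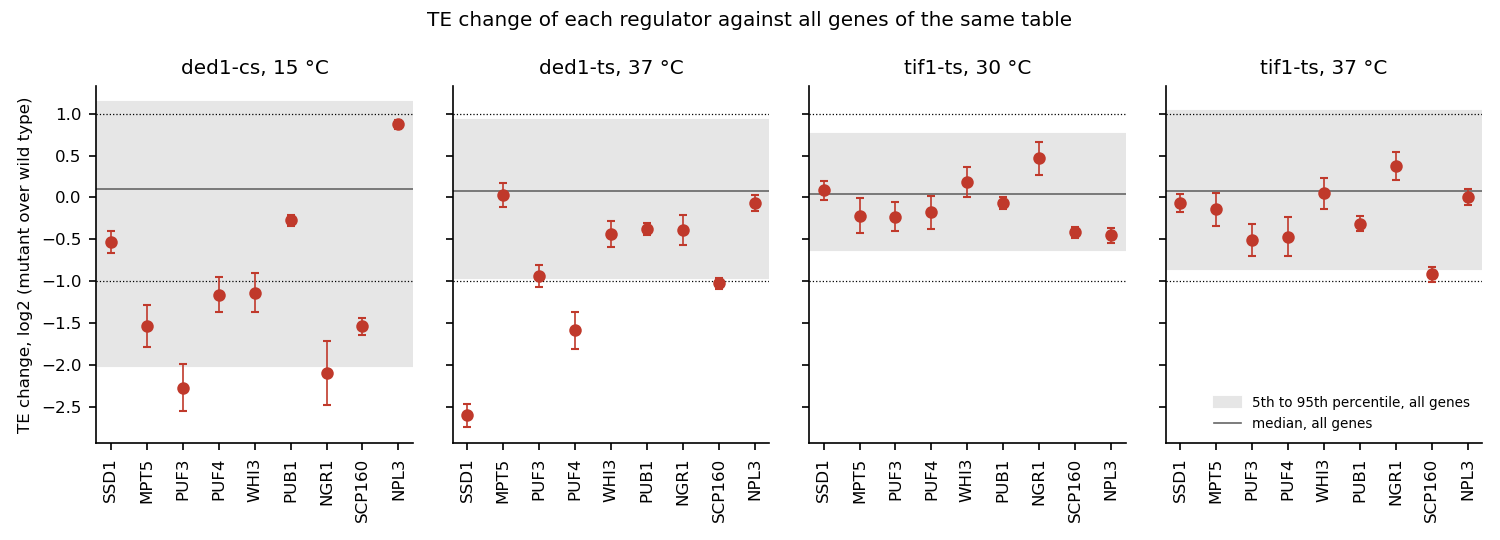
TE change of each of the 9 genes (x axis) in log2 units (y axis), from the authors' deposited tables, in 4 panels for the 4 comparisons; bars span 1.96 counting standard errors of the footprint change to each side, dotted lines mark 2-fold, the grey band runs from the 5th to the 95th percentile of all genes and the solid line is their median. In ded1-cs 6 genes lie below the lower dotted line, in ded1-ts SSD1, PUF4 and SCP160 do, and none does in tif1-ts.

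At the mRNA level NPL3 in ded1-ts was the sole member past 2-fold, on the low side, against 2.58% of genes there. In the other comparisons mRNA was lower by that much for 2.04% of genes in ded1-cs and, in tif1-ts, 1.03% (30 °C) and 3.23% of them (37 °C). No member had mRNA at least 2-fold higher, against 0.844%, 2.52%, 1.3% and 3.79% of genes, again from ded1-cs and ded1-ts to tif1-ts at 30 and 37 °C. Footprints were at least 2-fold lower for 5 of 9 members in ded1-cs against 16.4% of genes, and for 4 in ded1-ts against 6.19%. In tif1-ts the count was 0 at 30 °C against 1.49% of genes and 1, SCP160, at 37 °C against 4.16%. Footprints at least 2-fold higher were found for no member, against 6.26%, 8.57%, 4.28% and 6.37% of genes in that order.

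**Figure D3:**
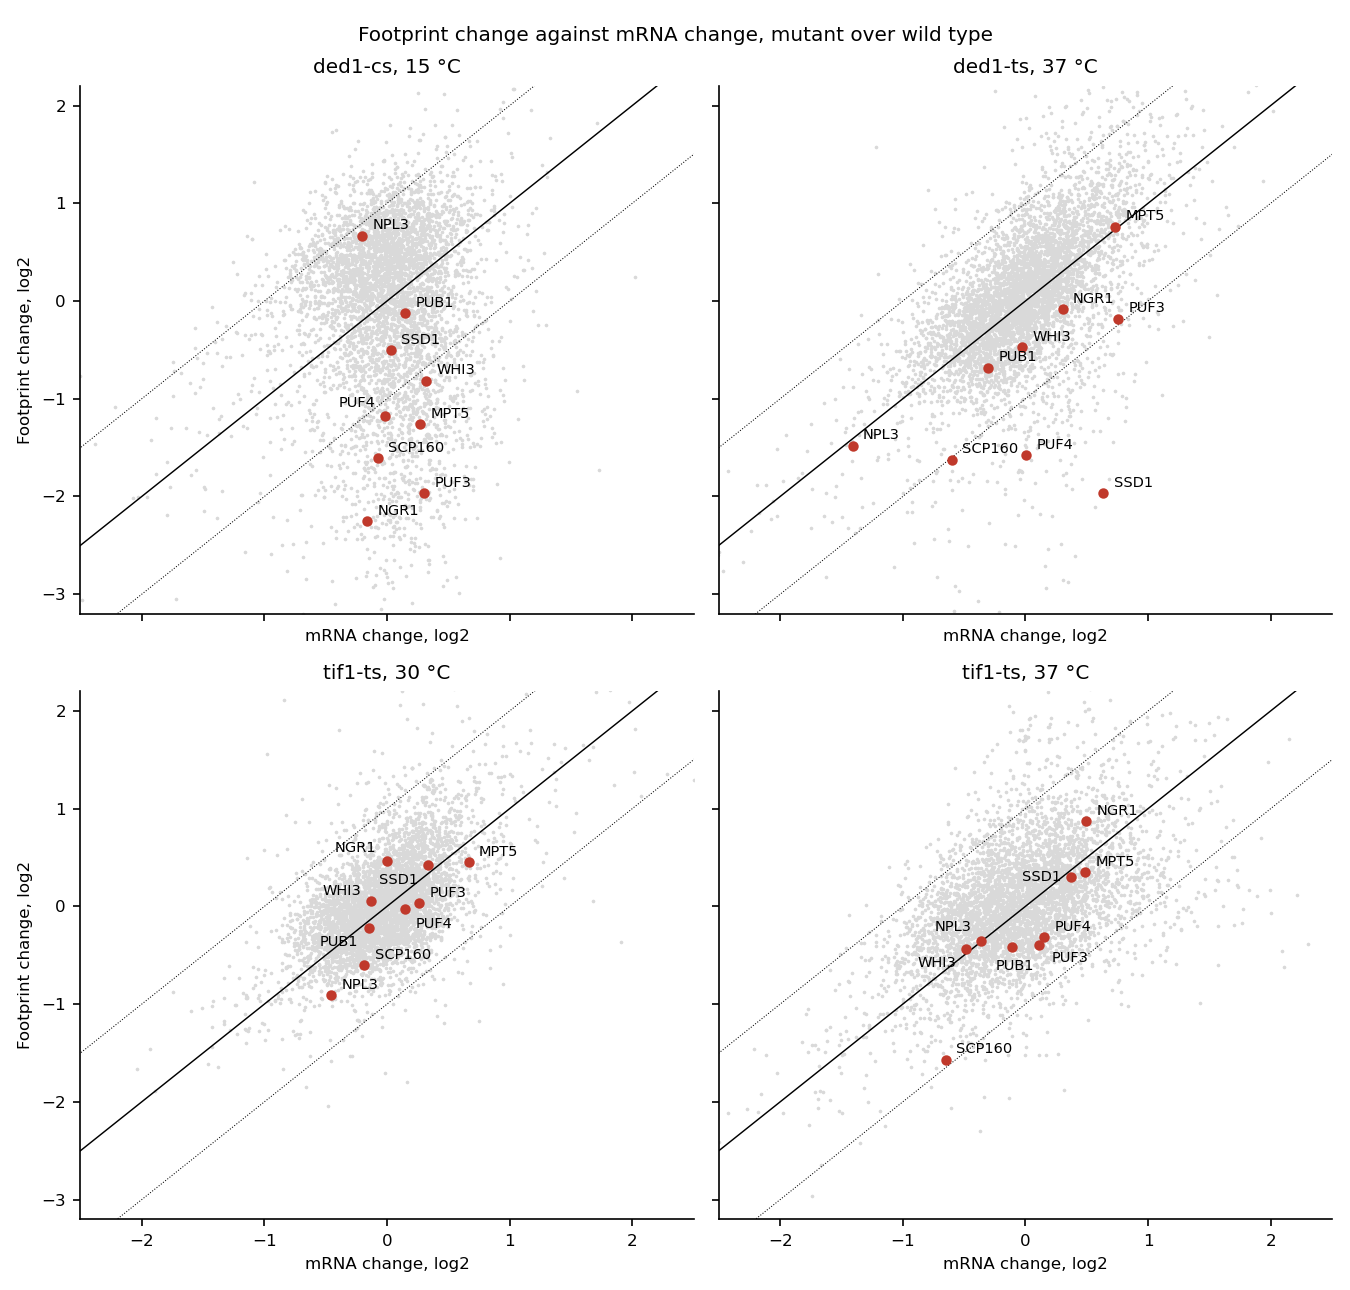
Footprint change (y axis) against mRNA change (x axis), both log2 of mutant over wild type from the authors' deposited tables, in 4 panels; red points are the 9 genes, grey points all other genes within the axis limits, the solid diagonal marks no TE change and the dotted ones 2-fold. SSD1 in ded1-ts lies at 0.63 and -1.96, far below the diagonal, whereas NPL3 in the same panel lies near it at -1.41 and -1.48.

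SSD1 (YDR293C) was the member with the largest TE change of the set in any of the comparisons, and that change was in ded1-ts. Ssd1 is a cytoplasmic protein of the RNase II family without nuclease activity, which binds mRNAs of cell wall proteins and is phosphorylated by the kinase Cbk1. Its footprint level was 10.82 in wild-type DED1 at 37 °C and 8.86 in ded1-ts, while its mRNA level was 9.9 and 10.54, all as the authors' deposited log2 values. Footprints were thus lower and mRNA higher in the same cells. The authors' deposited table gives SSD1 changes of -1.96 for footprints, 0.63 for mRNA and -2.60 for TE, the last a 6.05-fold lower TE. Only 0.229% of the 5238 genes entered had a lower TE change in ded1-ts. The counting standard error of the footprint change was 0.07, from 2092 estimated reads in the wild type and 561 in the mutant.

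The other mutants left SSD1 much closer to its wild type. In ded1-cs its footprint level was 9.01 against 9.51 in the wild type and its mRNA level 8.9 against 8.8, as the authors' deposited log2 values. The TE change there was -0.53 in the authors' deposited table, and 28.1% of genes had a lower one. For tif1-ts the authors' deposited tables give SSD1 TE changes of 0.08 (30 °C) and -0.07 (37 °C), with footprints and mRNA both slightly higher in the mutant at each temperature. The TE change of SSD1 in ded1-ts was lower than that in ded1-cs by a log2 difference of -2.07, and 6.91% of the 4850 genes shared by those tables had a difference of at least 2-fold in that direction. The 2 DED1 mutants differ in allele and in temperature, and these cannot be told apart.

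The Puf proteins carry repeats that read a short motif in the 3′ end of target mRNAs and often recruit the deadenylase. All 3 members of this family in the set had lower TE in ded1-cs, with mRNA changes between -0.01 and 0.30 there. PUF3 (YLL013C), which binds mRNAs of mitochondrial proteins, had a footprint level of 8.57 in the wild type and 6.61 in ded1-cs, with mRNA at 8.1 and 8.4, as the authors' deposited log2 values. That TE change, -2.27 in the authors' deposited table, was the lowest of the set in ded1-cs, and 2.88% of genes had a lower one. In ded1-ts the PUF3 TE change was -0.94 in the authors' deposited table, just short of the threshold, where mRNA was at 0.76 and footprints at -0.18. The lower TE of PUF3 in ded1-ts was therefore made up mostly of more mRNA rather than fewer footprints. For tif1-ts the authors' deposited tables give PUF3 TE changes of -0.23 (30 °C) and -0.51 (37 °C).

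PUF4 (YGL014W), which binds many mRNAs of ribosome assembly factors, had lower TE under both DED1 mutations with nearly constant mRNA. Its TE change was -1.16 in ded1-cs and -1.58 in ded1-ts in the authors' deposited tables, where the mRNA changes were -0.01 and 0.00. Its footprint level was 8.68 and 7.51 in the wild type and mutant at 15 °C, and 9.09 and 7.51 at 37 °C, as the authors' deposited log2 values. In ded1-ts only 1.53% of genes had a lower TE change than PUF4. The tif1-ts changes of PUF4 were smaller, at -0.18 and -0.47 for 30 and 37 °C in the authors' deposited tables.

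MPT5 (YGL178W), also called PUF5, represses mRNAs such as that of the HO endonuclease. Its TE was lower under 1 of the DED1 mutations, with a change of -1.53 in ded1-cs and 0.03 in ded1-ts in the authors' deposited tables. In ded1-ts its footprints and its mRNA were both higher, by 0.76 and 0.73 in the authors' deposited table. MPT5 mRNA was higher in the mutant in all 4 comparisons, at 0.27, 0.73, 0.66 and 0.49 in the authors' deposited tables in the order ded1-cs, ded1-ts and tif1-ts at 30 and 37 °C. SSD1 and PUF3 mRNA was also higher in all 4, though for SSD1 by only 0.03 in ded1-cs in the authors' deposited table. The share of all genes with higher mRNA in all 4 was not computed. The difference between the MPT5 TE changes in ded1-ts and ded1-cs was 1.56, opposite in direction to that of SSD1. A difference of at least 2-fold in this direction was found for 15.1% of genes.

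WHI3, PUB1 and NGR1 encode proteins with RNA recognition motifs, and they differed from each other mainly in ded1-cs. NGR1 (YBR212W), a negative regulator of growth that promotes decay of some mRNAs, had a footprint level of 7.93 in the wild type at 15 °C and 5.68 in ded1-cs, as the authors' deposited log2 values. Its TE change there was -2.09 with an mRNA change of -0.16 in the authors' deposited table, and the mutant value rests on 59.2 estimated reads, the fewest of any member. Counting error on the footprint change was 0.19. Both figures are uncertain, since only 38.0% of the low values in ded1-cs lay near a whole read. Elsewhere the authors' deposited tables give NGR1 TE changes of -0.38 (ded1-ts), 0.47 (tif1-ts, 30 °C) and 0.37 (tif1-ts, 37 °C). NGR1 was the only one of the 9 with a TE change above 0.2 in tif1-ts, at either temperature.

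WHI3 (YNL197C), which binds the mRNA of the G1 cyclin CLN3 and takes part in cell size control, had a TE change of -1.13 in ded1-cs in the authors' deposited table. Its footprint level there went from 8.10 to 7.29 and its mRNA level from 7.7 to 8.0, as the authors' deposited log2 values. The remaining WHI3 TE changes in the authors' deposited tables were -0.44 (ded1-ts), 0.18 (tif1-ts, 30 °C) and 0.05 (tif1-ts, 37 °C). PUB1 (YNL016W), a poly(U)-binding protein that protects mRNAs from decay and joins stress granules, stayed within 2-fold in footprints, mRNA and TE in every comparison. Its TE changes were -0.27, -0.38, -0.07 and -0.31 in the authors' deposited tables, in the order ded1-cs, ded1-ts and tif1-ts at 30 and 37 °C. For the same comparisons in turn, the authors' deposited tables give PUB1 footprint changes of -0.13, -0.68, -0.22 and -0.42, and mRNA changes of at most 0.30 in size.

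SCP160 (YJL080C) encodes a protein with many KH domains that sits on polysomes and at the endoplasmic reticulum. It had lower TE in all 4 comparisons, of which 2 are of the same tif1-ts strain, at -1.53, -1.02, -0.42 and -0.92 in the authors' deposited tables in the same order. PUF3, PUF4 and PUB1 also had lower TE in all 4, and the share of all genes that did was not computed. The log2 footprint level of SCP160 was 11.20 and 9.59 for wild type and mutant at 15 °C, and 12.66 and 11.04 for the DED1 strains at 37 °C, as deposited by the authors. In the TIF1 strains it was 11.37 and 10.77 at 30 °C, and 11.04 and 9.48 at 37 °C, as deposited by the authors. SCP160 was the member with the lowest TE change in tif1-ts at 37 °C, where 4.06% of genes had a lower one, and its mRNA change of -0.65 in the authors' deposited table brought the footprint change to -1.57. With 890 to 8132 estimated reads per condition, its counting error was at most 0.05.

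NPL3 (YDR432W), an SR-like protein of mRNA export and splicing, went the other way in ded1-cs. Its footprint level was 11.14 in the wild type at 15 °C and 11.81 in ded1-cs against mRNA levels of 10.1 and 9.9, as the authors' deposited log2 values, and its TE change was 0.87 in the authors' deposited table. Under ded1-ts the change was at the mRNA level instead. NPL3 mRNA went from 9.9 to 8.53 and footprints from 11.5 to 10.02 in the wild type and ded1-ts, as the authors' deposited log2 values. The authors' deposited table gives -1.41 for the mRNA and -0.07 for the TE of NPL3, and 1.09% of genes had a lower mRNA change. For tif1-ts the authors' deposited tables give NPL3 TE changes of -0.45 (30 °C) and 0.00 (37 °C), with mRNA changes of -0.46 and -0.36.

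The members held different ranks under the 2 DED1 mutations. Lower TE past 2-fold in both was found for PUF4 and SCP160. MPT5, PUF3, WHI3 and NGR1 passed 2-fold in ded1-cs and not in ded1-ts, and SSD1 in ded1-ts and not in ded1-cs. Of all genes 17.4% passed on the low side in ded1-cs and 4.64% in ded1-ts, and the share passing in both was not computed. In ded1-ts PUF3 at -0.94 and SCP160 at -1.02 lay near the threshold. PUF3 passed once centred, at -1.01, and SCP160 did not pass relative to the length line, at -0.75. In ded1-cs MPT5 (-0.90), PUF4 (-0.64), WHI3 (-0.78) and SCP160 (-0.83) did not pass relative to the length line either. On that measure neither PUF4 nor SCP160 passed under both mutations. The split of the members is therefore not firm. The differences between the TE changes, ded1-ts minus ded1-cs, ran from -2.07 for SSD1 to 1.70 for NGR1. Only 0.268% of the shared genes had a lower difference than SSD1, while 96.3% had a lower one than NGR1. At 37 °C the TE change of ded1-ts minus that of tif1-ts was -2.53 for SSD1 and -1.12 for PUF4, where 6.39% of genes were at least 2-fold apart in that direction and 4.31% in the other. Between the temperatures of tif1-ts the members moved less, with differences of 37 °C minus 30 °C from -0.50 for SCP160 to 0.45 for NPL3, where 3.89% of genes were at least 2-fold lower and 4.64% higher.

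**Figure D4:**
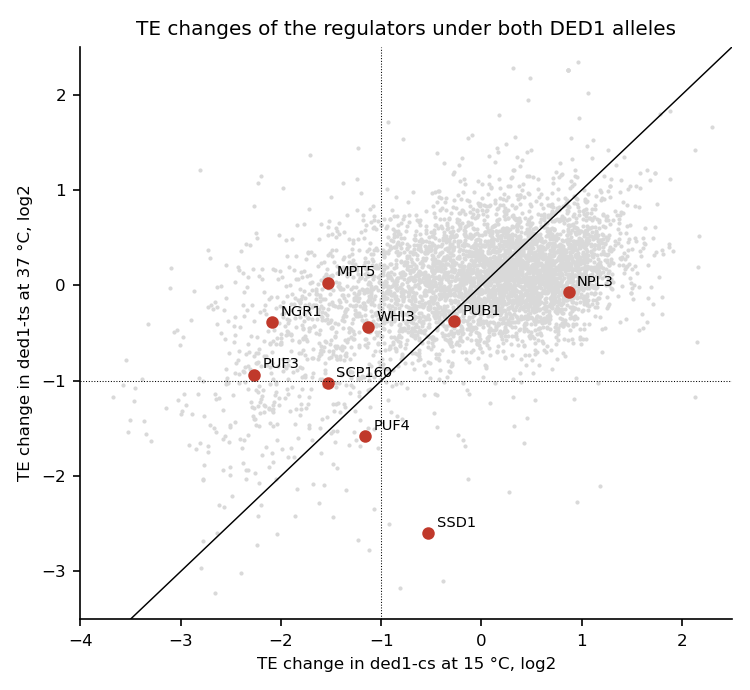
TE change in ded1-ts at 37 °C (y axis) against that in ded1-cs at 15 °C (x axis), both log2 from the authors' deposited tables; red points are the 9 genes, grey points the other genes of both tables within the axis limits, the diagonal marks equal changes and dotted lines mark 2-fold lower. SSD1 stands at -0.53 and -2.60 and NGR1 at -2.09 and -0.38, on opposite sides of the diagonal.

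Wild-type TIF1 cells allowed the TE levels at 30 and 37 °C to be set side by side, across tables that were normalized separately. Relative to the median gene, SSD1 stood at 0.44 at 30 °C and 0.86 at 37 °C. NPL3 stood at 1.88 and 1.34, and PUF4 at 0.25 and -0.19. These were the members with the largest shifts between the wild-type TIF1 conditions. SCP160 at 2.06 and 2.03, PUB1 at 2.05 and 1.98 and MPT5 at 1.38 and 1.34 had nearly the same level at both temperatures. For SSD1 the wild-type DED1 cells at 37 °C gave 0.91, close to the TIF1 wild type at that temperature, and those at 15 °C gave 0.69. At 37 °C wild-type DED1 cells gave -0.22 for PUF4, also close to TIF1. For NPL3 they gave 1.59, between the TIF1 values at 30 and 37 °C.

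Gene length moved with the TE changes. Across all genes Spearman's rho between gene length and TE change was -0.42 (ded1-cs), -0.35 (ded1-ts), -0.21 (tif1-ts, 30 °C) and -0.39 (tif1-ts, 37 °C), a description over genes that share libraries. The members were mostly long, from 1245 nt for NPL3 to 3753 nt for SSD1, where the median gene entered in ded1-cs had 1293 nt. Taken relative to a line fitted over all genes against log2 length, PUF3 at -1.75 and NGR1 at -1.72 still passed 2-fold in ded1-cs. MPT5 came to -0.90, SCP160 to -0.83, WHI3 to -0.78 and PUF4 to -0.64 on that measure. In ded1-ts SSD1 came to -2.32, PUF4 to -1.40 and SCP160 to -0.75. SSD1 in ded1-cs was at 0.18, so that it lay above the line.

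**Figure D5:**
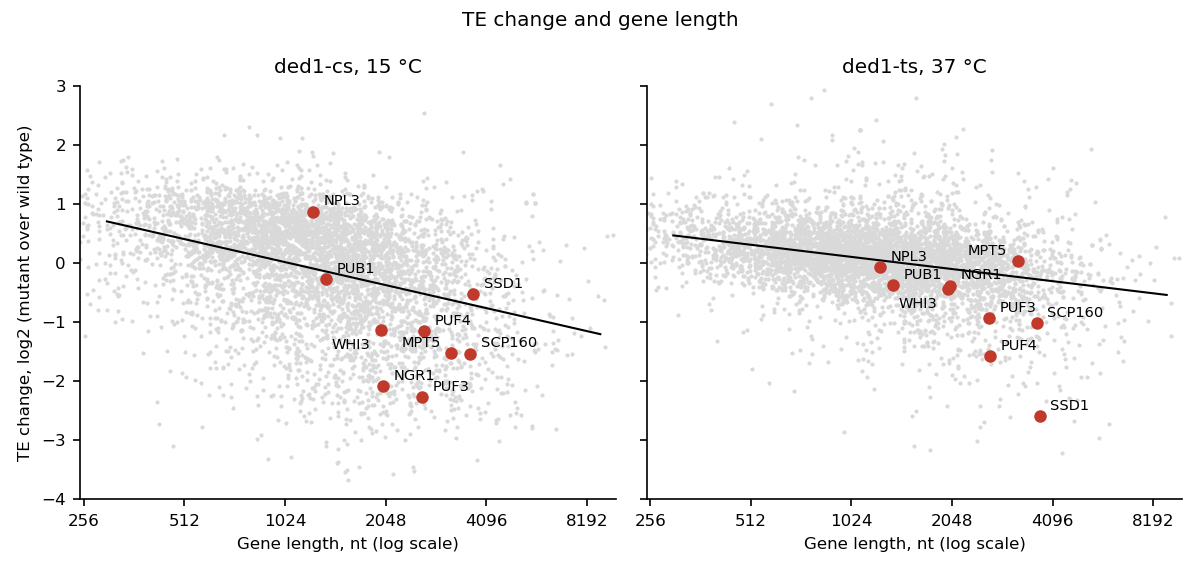
TE change (y axis, log2, from the authors' deposited tables) against gene length in nt (x axis, log scale) in ded1-cs and ded1-ts; red points are the 9 genes, grey points all genes within the axis limits and the line is the fit over all genes. SSD1 (3753 nt) lies above the line in ded1-cs and far below it in ded1-ts, and the short NPL3 (1245 nt) lies above it in ded1-cs.

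Relatives, partners, regulators and reported target mRNAs of the members were taken from lists of 71 genes in all besides the members, of which 67 entered in ded1-cs, 70 in ded1-ts and 66 in each tif1-ts comparison. TE was at least 2-fold lower for 21 of them (31.3%) in ded1-cs and for 8 (11.4%) in ded1-ts, where 17.4% and 4.64% of all genes were. In tif1-ts it was for none at 30 °C and for 4 (6.06%) at 37 °C, beside 1.14% and 3.19% of all genes. It was at least 2-fold higher for 2 (2.99%) in ded1-cs, beside 8.63% of all genes, and for none elsewhere. Their median TE changes were -0.12, -0.18, -0.04 and -0.08 in the order used above, beside 0.10, 0.08, 0.04 and 0.08 for all genes.

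The Puf relatives outside the set stayed within 2-fold in TE in every comparison. In ded1-cs JSN1 was at 0.22, PUF2 at -0.32 and the ribosome assembly factor PUF6 at 0.45 in the authors' deposited table. Under ded1-ts JSN1 stood at 0.21, PUF2 at 0.70 and PUF6 at -0.19 in the authors' deposited table. Among 24 other cytosolic mRNA-binding proteins entered in ded1-cs, a list that also holds JSN1 and PUF2, 10 had TE at least 2-fold lower and 1 higher, beside 17.4% and 8.63% of all genes. WHI4, the paralog of WHI3, was lowest at -2.33, followed by NAB6 at -2.28, the Pab1-binding protein PBP1 at -2.22 and MRN1 at -2.11 in the authors' deposited table. SHE2, which carries ASH1 mRNA to the bud and is named for being the only higher one, was at 1.21 in the authors' deposited table. Under ded1-ts 3 of 27 were at least 2-fold lower, beside 4.64% of all genes, namely PBP1 at -1.48, NAB6 at -1.38 and MRN1 at -1.03 in the authors' deposited table. Under tif1-ts PIN4 at -1.12 and the She2 partner SHE3 at -1.06 were past 2-fold at 37 °C in the authors' deposited table.

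Of 13 genes for nuclear mRNA packaging and export, the field in which Npl3 acts, TE was lower by 2-fold or more for 3 in ded1-cs and for 1 in ded1-ts, beside 17.4% and 4.64% of all genes. Their median TE changes were 0.11 and -0.23. The export adaptor YRA1 was the lowest in both, at -1.90 and -1.70 in the authors' deposited tables. YRA2 at -1.18 and the termination factor NRD1 at -1.03 followed in ded1-cs in the authors' deposited table. SKY1, the kinase that phosphorylates Npl3, had a TE change of -2.02 in ded1-cs in the authors' deposited table, the only one of 3 listed partners of Npl3 past 2-fold there. Of 3 partners of Scp160 in translational control, SMY2 was at -1.44 in ded1-cs and -1.91 in ded1-ts in the authors' deposited tables, and ASC1 and EAP1 did not pass 2-fold in any comparison.

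Ssd1 is controlled by the kinase Cbk1 and its partners in the RAM network. CBK1 itself was at -1.77 and the scaffold TAO3 at -1.56 in TE change in ded1-cs, per the authors' deposited table. TE was at least 2-fold lower for 17.4% of all genes there. Listed partners within 2-fold are named to give both sides. They were MOB2 at 0.48, SOG2 at -0.45, HYM1 at -0.62 and KIC1 at -0.70 in ded1-cs in the authors' deposited table. CBK1 stood at -0.95 in ded1-ts in the authors' deposited table, within 2-fold of its wild type.

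mRNAs reported as bound by the members were described as well. Of 9 listed mRNAs reported as bound by Ssd1, 8 entered and none passed 2-fold in TE in ded1-cs. There 17.4% of all genes were at least 2-fold lower and 8.63% higher, so little can be read from so few mRNAs. Their median TE change in ded1-cs was 0.58, beside 0.10 for all genes. In ded1-ts the cell wall glucanase SCW10 was at -1.34 and the G1 cyclin CLN2 at -1.15 in TE change in the authors' deposited table. At least 2-fold lower TE was found for 4.64% of all genes there. SIM1 at -1.10 and SCW10 at -1.07 were past 2-fold at 37 °C in tif1-ts in the authors' deposited table, beside 3.19% of all genes. The median of the 8 was -0.66 there, beside 0.08 for all genes. The mRNA of this list was lower in ded1-ts, with a median change of -1.41 and 5 of 8 at least 2-fold lower, beside 2.58% of all genes; TOS6 was at -3.06, CLN2 at -2.31, SRL1 at -1.55, SIM1 at -1.45 and CCW12 at -1.37 in the authors' deposited table, named because they were so few. In tif1-ts at 37 °C, where 3.23% of genes had mRNA at least 2-fold lower, 4 of these 8 mRNAs did, and at 30 °C 2 of 8 did against 1.03% of genes. SSD1 itself had TE changes of 0.08 (30 °C) and -0.07 (37 °C) in tif1-ts in the authors' deposited tables. The part of SSD1 in the levels of these mRNAs was not tested.

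Among mRNAs reported as targets of Mpt5, HO had a TE change of -2.28 in ded1-ts and LRG1 one of -1.62 in ded1-cs in the authors' deposited tables, and STE7 and TEC1 did not pass 2-fold. HO mRNA was lower as well, in the authors' deposited tables, at -3.74 (ded1-ts), -2.04 (tif1-ts, 30 °C) and -3.58 (tif1-ts, 37 °C). The HO footprint change in ded1-ts was -6.01 in the authors' deposited table. Since the abundance floor is a mean of wild type and mutant, HO could enter on its wild-type level, and its TE there is uncertain. Elsewhere the HO TE change was positive, at 0.95 (ded1-cs), 0.38 (tif1-ts, 30 °C) and 0.71 (tif1-ts, 37 °C) in the authors' deposited tables. CLN3, the mRNA bound by Whi3, had a TE change of -2.35 in ded1-cs beside the -1.13 of WHI3 in the authors' deposited table. Of 4 mRNAs reported as targets of Puf3, PET123 was at -1.18 and COX17 at 1.10 in TE change in ded1-cs in the authors' deposited table. There 17.4% of all genes were at least 2-fold lower and 8.63% higher. None of the 4 passed 2-fold in ded1-ts, where 4.64% of all genes were lower and 4.18% higher.

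The genes whose TE changes over the 4 comparisons were most like those of SSD1 were sought by Euclidean distance among 2265 named genes of abundance 100 or more in every table. MSB2, a signalling mucin of the plasma membrane, was nearest at a distance of 0.79, with TE changes of -1.07, -2.34, -0.11 and -0.55 in the order used above, per the authors' deposited tables. YSP2 at 1.07, the mitochondrial ribosomal protein gene RML2 at 1.09, the methionine synthase gene MET6 at 1.20 and MDS3 at 1.25 followed. For PUF3 the nearest gene, AUR1, lay at 0.15, so SSD1 had no comparably close neighbour among these genes. Only 0.229% of genes had a lower TE change than SSD1 in ded1-ts, and few genes lie near so low a value. The larger distance is therefore not a separate trait of SSD1. Each of the 5 genes nearest to SSD1 had a TE change between -1.62 and -2.34 in ded1-ts in the authors' deposited table, smaller in size than that of SSD1. The ded1-ts change was part of the distance, so low values there follow from how these genes were picked.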

How the data were processed

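Ribosome footprints (RNase I) and mRNA were sequenced in 32 samples, 16 groups of 2 replicates, per the labels. The authors deposited 4 tables of log2 normalized abundance per gene, 1 column per group, with the log2 difference between mutant and wild type in footprints, mRNA and TE. No source used here tells how the replicates were combined. CASAVA 1.8, Bowtie2 2.0.6, TopHat2 2.0.7, DESeq and build sacCer2 are named without roles, per the submitters' processing notes. Strand use and the treatment of overlapping genes have no source here, so reads of overlapping genes could not be told apart. Each table was normalized on its own, so changes are relative to other genes.

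Replicate-based tests could not be run because the tables hold no replicate columns. Changes were taken from the deposited differences. A gene entered if footprints and mRNA each averaged 10 or more between wild type and mutant and neither footprint value meant 0 reads. The value of 1 read was estimated from the spacing of low footprint values. Of genes with up to 10 reads, the share within 0.1 of a whole read was 38.0% in ded1-cs and from 75.0% to 100% in the other columns, so reads and counting errors of ded1-cs are the least certain. Counting errors leave out differences between cultures. Lengths came from a RefSeq gene table of assembly R64, which matched all but 2 genes per table by systematic name; no coordinates are given. Python 3.11.15 with numpy 2.4.6, pandas 2.3.3 and matplotlib 3.10.9 was used, and the counting and length steps were tested on simulated data. The simulated footprints were whole reads by construction. That test therefore cannot tell whether the low values of ded1-cs are whole reads.

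The members and the 10 other lists, which rest on general knowledge of yeast, were chosen with earlier results of these data known. All members were named; listed genes were named where TE changed at least 2-fold, at most 4 per list and comparison, with the exceptions stated, and the 5 genes nearest to SSD1 in TE change were named. DED1 was always named. A listed gene and the counts of its list are not reported here.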

Additional observations from a re-analysis of the deposited data

How the results depend on the processing

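Alternatives were another abundance floor, a 1.5-fold threshold, centring on the median gene, differences of the level columns and a length line. Members with TE lower by 2-fold or more numbered 6 in ded1-cs, and 2 relative to the length line; in ded1-ts it stayed within 1.5 times of 3, and in tif1-ts at 37 °C it was 0, and 1 at 1.5-fold, a threshold added for members after seeing the data. PUF3 in ded1-ts passed 2-fold once centred, at -1.01. At an abundance of 100 or more, genes with lower TE numbered 456 (ded1-cs), 16 (tif1-ts, 30 °C) and 85 (tif1-ts, 37 °C), and those with higher TE 249 (ded1-cs), 79 (ded1-ts), 11 (tif1-ts, 30 °C) and 80 (tif1-ts, 37 °C). At 1.5-fold, genes with lower and higher TE numbered 1305 and 1244 in ded1-cs, 547 and 683 in ded1-ts, 278 and 449 in tif1-ts at 30 °C, and 551 and 842 at 37 °C. Centring left 278 genes with higher TE in ded1-cs, against 419. The listed genes with higher TE in ded1-cs numbered 1 in place of 2 when centred or at abundance 100. At an abundance of 10, 3 of the 5 genes nearest to SSD1 were named again. The floor removes genes by construction; the cause of the other shifts was not tested. No change past 2-fold in a member reversed under any alternative run. Leaving out replicates was not run, and the reason is that no replicate columns were given. No paired analysis was possible because each column combines the replicates. Depth limits NGR1 in ded1-cs most.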

Other observations

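The genes nearest in TE change to the other members were looked up by the same distance, and these names were chosen after their values were seen. HRB1, SMY2 and CLN3 are named for known ties to a member, and most neighbours are not named. For NPL3 the nearest of 2265 genes was HRB1, which encodes another SR-like protein of mRNA export, at a distance of 0.21. UBA4 at 0.23, CDC73 at 0.24, MCM2 at 0.25 and SSF1 at 0.26 lay almost as near to NPL3. In the authors' deposited tables HRB1 stood at 0.70 (ded1-cs), -0.16 (ded1-ts), -0.48 (tif1-ts, 30 °C) and 0.09 (tif1-ts, 37 °C). SMY2, a translational control partner of Scp160, was the fifth nearest gene to PUF4, at 0.46. CLN3, whose mRNA is bound by Whi3, was the fifth nearest to NGR1, at 0.47.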
